A study of Mus musculus with 8 samples.

Results

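The genes described here encode the machinery that copies DNA and divides the cell. They are 42 genes, listed by symbol, of the 21765 gene symbols in a table of polysome-associated RNA from the main olfactory epithelium of mice, and all 42 were found there. The table holds TPM, the level of a transcript per unit of its length within a library whose values sum to 1000000, for 8 libraries. Tissue was placed in 100 µg/mL cycloheximide, which holds ribosomes on their mRNA, and its lysates were spun through sucrose gradients. Early polysomes are the lighter pool, with fewer ribosomes per mRNA, and late polysomes the denser pool. Control mice (WT) carried Mex3a flox/flox or Mex3a flox/+, with no Cre named, and conditional knockout mice (cKO) carried Mex3a flox/flox with a Cre, whose line is not reported here. The ages of the mice, and whether a lysate held 1 mouse or several, are not given in the sources used here. The design text of the series also speaks of sorted cells and of HyperTRIBE transgenes, which the labels of these 8 libraries do not mention. There were 2 WT and 2 cKO lysates, each of which gave 1 early and 1 late library, so that a genotype and fraction together had 2 libraries. Nothing in the labels says that replicate lysates came from separate mice, so p-values measure the spread between these lysates.

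The olfactory epithelium is one of the few places in the adult nervous system where neurons are replaced throughout life. Dividing globose basal cells supply new neurons, and horizontal basal cells form a mostly quiescent reserve. In a dividing cell, D-type cyclins with their kinases start the passage through G1, E-type cyclins and the licensing factors prepare origins, the Mcm helicase and the clamp Pcna travel with the replication fork, and Cdk1 with its B-type cyclins drives mitosis until the anaphase-promoting complex marks those cyclins for destruction. Transcription of many of these genes is switched on by E2F factors around S phase and by the NF-Y and MuvB complexes before mitosis.

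The depth inferred from the steps of the TPM values was 7776792 to 12771079 reads per library, lowest in cKO late replicate 2. The tissue label was checked against known markers. Omp, of mature olfactory neurons, lay between 2439 and 5393 TPM, and Cyp2g1, of supporting cells, between 697 and 3419 TPM. Mex3a itself was at 93.2 to 116 TPM in WT libraries and 11.1 to 19.8 TPM in cKO libraries. One library labelled WT by its title, early replicate 2, has the knockout's genotype tag. Its Mex3a level, 116 TPM, was the highest of the 8.

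The 42 genes differed widely in level per length. Mean TPM over the 8 libraries ranged from 1.37 for Orc1, the largest subunit of the origin recognition complex, to 130.2 for the G1 cyclin Ccnd1, with a median of 25.8. All 42 passed the filter on low values, a mean of at least 1 TPM, and 2 of them, Orc1 and the licensing factor Cdc6, lay under 5 TPM. Orc1 rested on 11 to 29 inferred reads per library, so its values are coarse. The proliferation marker Mki67 rested on 1713 to 3425 reads. In bulk tissue, fewer dividing cells and less of an mRNA per dividing cell cannot be told apart.

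**Figure D1:**
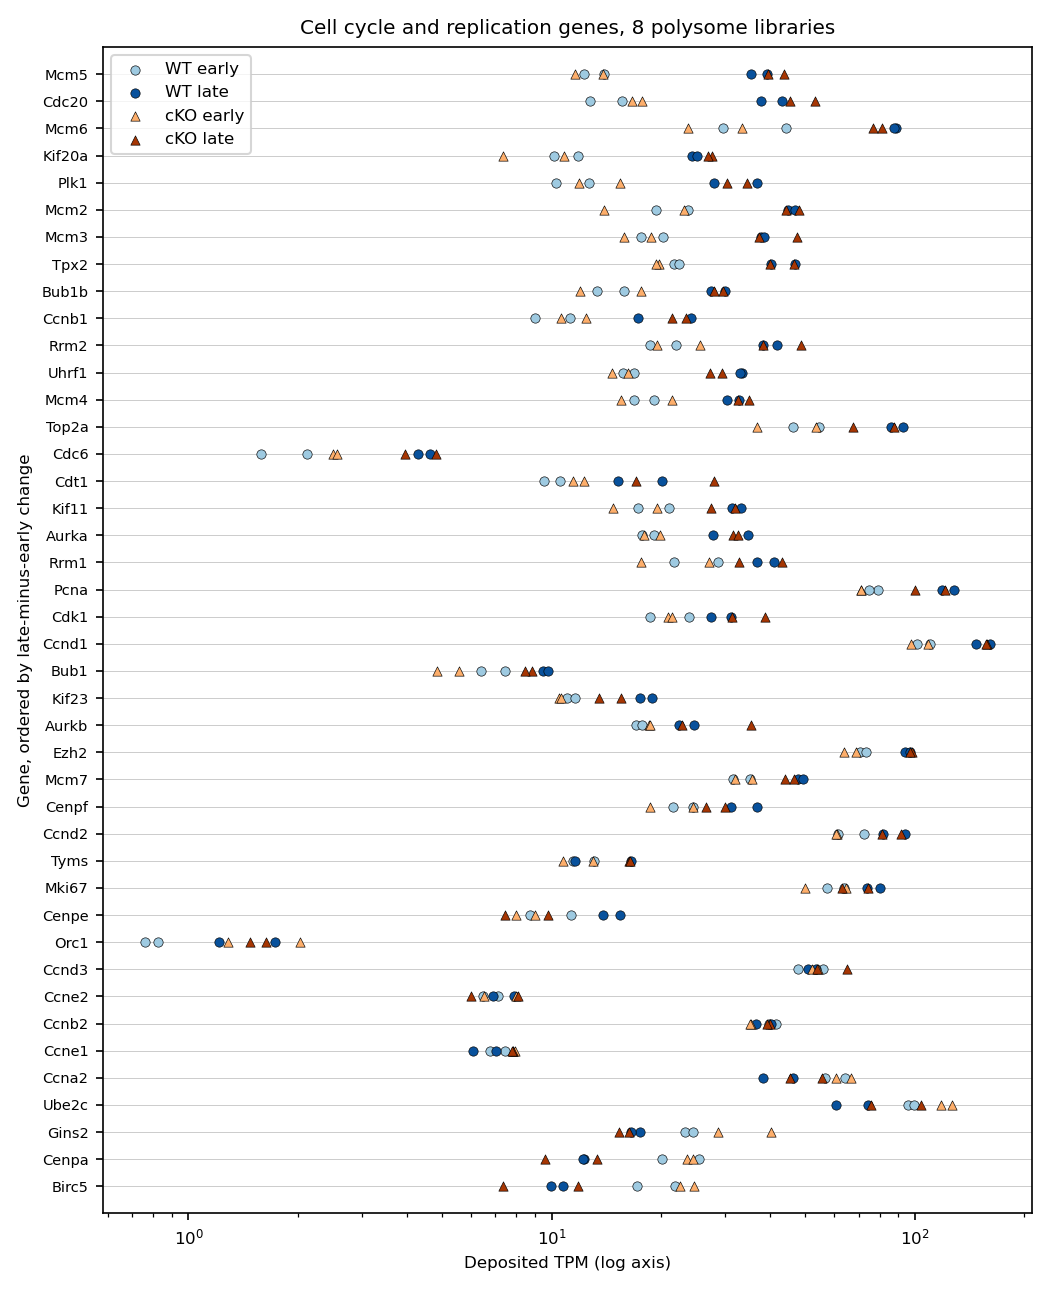
Deposited TPM (log axis) of the 42 genes in each of the 8 libraries, with genes ordered by their change from early to late polysomes; circles are WT, triangles cKO, light symbols early and dark symbols late polysomes. Dark symbols lie to the right of light ones for Mcm5, Cdc20 and Mcm6 at the top, and to the left for Birc5, Cenpa and Gins2 at the bottom.

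The promoters of the genes were searched for sequence features that played no part in listing them, of which only CCAAT was in most windows. RefSeq (GRCm38.p6) gave 36 start sites for 33 of the 42 genes, and the 250 bases before each were searched on both strands. CCAAT, the core of the NF-Y site, was found in 30 of the 36 windows (83.3%) and in 33.8% of all 32851 windows of this length. Any of the E2F spellings TTTGGCGC, TTTCGCGC, TTTCCCGC and TTTGCCGC was found in 7 windows, which is 19.4% of the genes' windows against 1.9% of all. TTTGAA, the cell cycle homology region bound by MuvB complexes, was found in 8 windows (22.2% against 16.0%), and TATAAA in 0 of 36 (against 12.4%). Some genes have several windows, and a match describes letters, not binding.

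Of these windows 4 are shown, for the 3 genes with the largest rise from early to late polysomes and for Ube2c, a gene that fell. Capitals mark CCAAT, E2F and TTTGAA matches on either strand. The Mcm5 window is chr8:75109259-75109508 (plus strand), that of Cdc20 chr4:118437344-118437593 (minus), that of Mcm6 chr1:128359706-128359955 (minus) and that of Ube2c chr2:164769679-164769928 (plus).
Mcm5: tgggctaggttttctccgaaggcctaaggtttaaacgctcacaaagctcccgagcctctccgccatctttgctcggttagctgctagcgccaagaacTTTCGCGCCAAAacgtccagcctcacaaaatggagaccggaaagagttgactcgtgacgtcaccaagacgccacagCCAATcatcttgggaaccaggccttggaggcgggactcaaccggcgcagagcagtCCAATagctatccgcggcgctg
Cdc20: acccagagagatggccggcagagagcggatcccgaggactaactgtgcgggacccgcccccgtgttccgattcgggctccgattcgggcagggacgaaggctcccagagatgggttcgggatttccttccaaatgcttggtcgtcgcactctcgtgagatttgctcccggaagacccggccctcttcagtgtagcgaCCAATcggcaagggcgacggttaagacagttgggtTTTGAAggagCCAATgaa
Mcm6: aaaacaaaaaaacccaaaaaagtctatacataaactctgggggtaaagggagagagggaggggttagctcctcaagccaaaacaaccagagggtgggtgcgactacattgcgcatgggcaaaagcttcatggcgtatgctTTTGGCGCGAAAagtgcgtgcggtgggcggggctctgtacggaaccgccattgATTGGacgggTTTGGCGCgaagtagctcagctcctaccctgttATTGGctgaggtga
Ube2c: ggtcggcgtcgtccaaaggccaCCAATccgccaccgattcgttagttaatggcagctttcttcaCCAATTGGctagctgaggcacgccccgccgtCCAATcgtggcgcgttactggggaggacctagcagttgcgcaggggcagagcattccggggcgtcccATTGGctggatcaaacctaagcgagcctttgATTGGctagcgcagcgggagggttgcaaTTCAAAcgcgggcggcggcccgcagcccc
Both Mcm windows hold E2F spellings, 2 in Mcm5 and 3 in Mcm6, beside 2 CCAAT matches each. The Cdc20 and Ube2c windows hold 1 TTTGAA match each and 0 E2F spellings, with 2 CCAAT matches in Cdc20 and 6 in Ube2c.

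Most of the genes were higher in late than in early polysomes. Averaged over genotypes, 29 of 42 rose and 5 fell at an adjusted p under 0.05 by limma on log2(scaled TPM + 1), and 8 did not pass. Over all 16097 genes tested, 34.2% rose and 34.8% fell. The median change of the 42 was 0.46 log2, against -0.014 over all genes. Lysate by lysate, the median was 0.44 (WT replicate 1), 0.56 (WT replicate 2), 0.45 (cKO replicate 1) and 0.54 (cKO replicate 2), and 36 of the 42 had one sign in 4 of 4 lysates, where 75.9% of all genes did. The late libraries lay wholly above the early ones in 28 genes and wholly below in 4, where 31.4% and 31.1% of all genes did so. Within WT alone 24 rose and 5 fell (27.1% and 27.7% of all genes), and within cKO alone 26 rose and 5 fell (28.6% and 29.4%), with 26 of the 42 called in one direction in both genotypes, where 48.5% of all genes were.

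Levels of markers of other dividing or blood-derived cells were measured in the same libraries. All sums but the erythroid and the B and plasma cell ones separated the fractions within each genotype. Both fractions came from the same lysates, so a difference between them describes the position of these mRNAs, not the number of cells. The summed level of 8 neutrophil-lineage markers, of which Ltf held the most, was 187 to 321 TPM in early and 379 to 642 TPM in late libraries. Without Ltf the other 7 summed to 61.5 to 98.6 TPM in early and 37.1 to 67.5 TPM in late libraries, lower in the late library of 4 of 4 lysates. Of the 7 of the 8 that were tested 2 rose and 3 fell (28.6% and 42.9%, against 34.2% and 34.8% of all genes). For 8 horizontal basal cell markers the sum was 89.1 to 128 and 189.6 to 214 TPM, and for 12 globose basal and progenitor markers, which include Ezh2 of the 42, 869 to 929 and 908 to 1054 TPM. Erythroid markers (5 of 9 were in the table) summed to 64.3 to 90.5 TPM in early and 75.3 to 114 TPM in late libraries, 9 B and plasma cell markers to 12.4 to 24.9 and 13.8 to 16.9 TPM, and 9 of 10 T cell and macrophage markers to 131 to 154 and 173 to 232 TPM. In the last sum the macrophage markers Csf1r, Cd68, C1qa and C1qb held the most, with means of 28.3 to 56.5 TPM. The T cell markers Cd3e, Cd3d, Cd8a and Cd4 had means of 0.08 to 1.57 TPM, so the sum says little about T cells. Of the 7 T cell and macrophage markers tested 2 rose and 1 fell (28.6% and 14.3%, against 34.2% and 34.8% of all genes). Ms4a3, Neurod2, Jchain, Cd3e, Cd3d and Cd8a were at 0 in 1 or more libraries, while Elane, Mpo and Rag1 were above 0 in all 8. The part of these cells in the results was not tested.

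**Figure D2:**
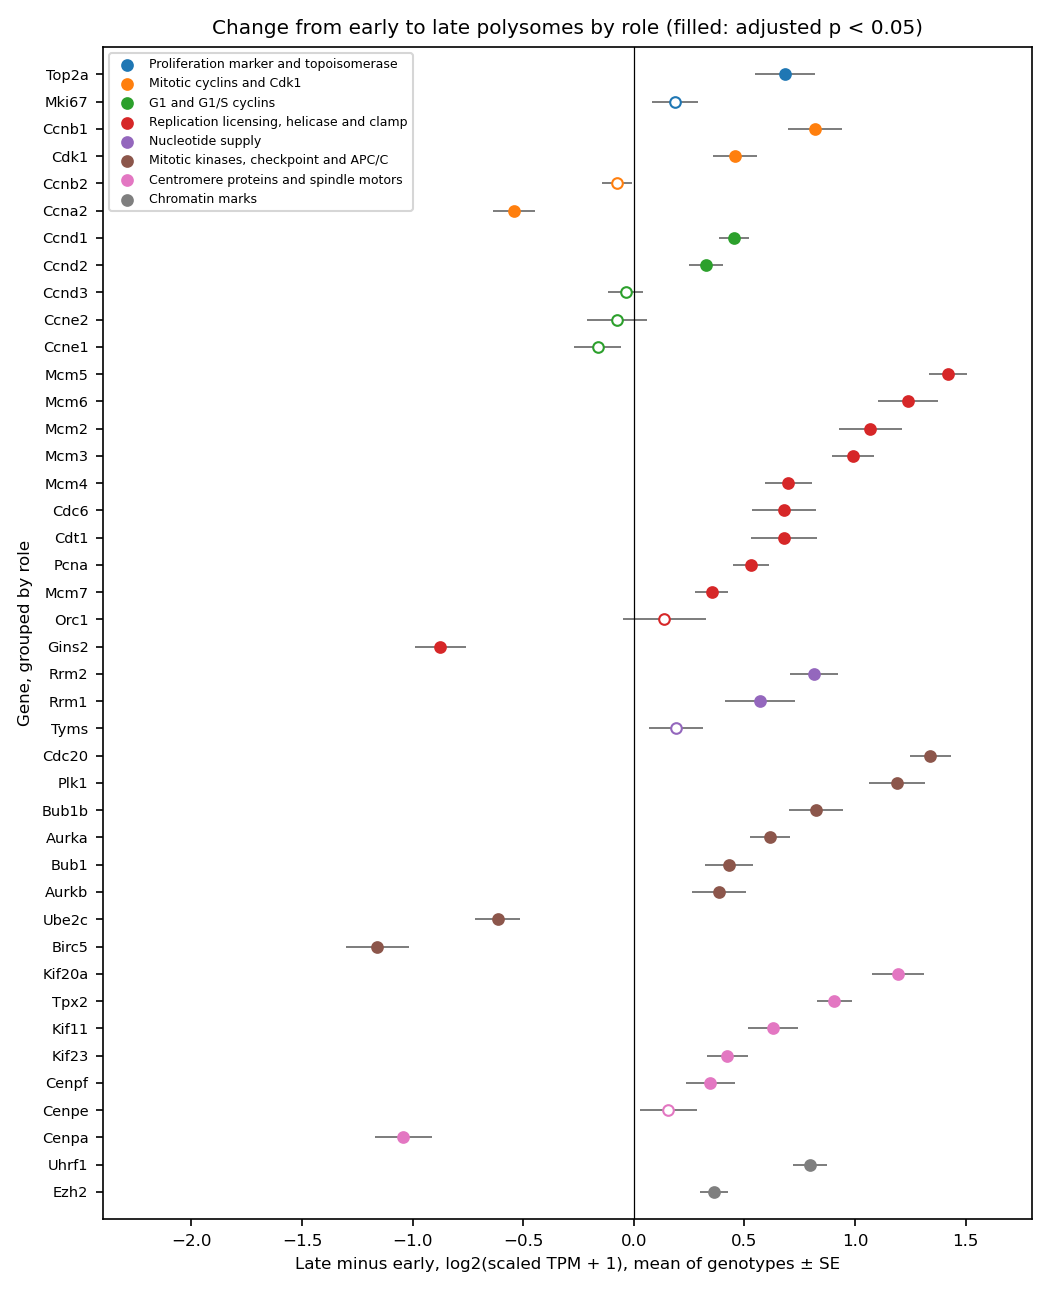
Late minus early difference on the log2(scaled TPM + 1) scale (mean of both genotypes) with its standard error for the 42 genes, grouped by role; filled points passed an adjusted p of 0.05. The licensing and helicase genes reach from Gins2 at -0.87 to Mcm5 at 1.42, and Birc5 lies lowest of all at -1.16.

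Among the 11 genes of origin licensing, the replicative helicase and the clamp, 9 rose, 1 fell and 1 did not pass, with a median change of 0.68 log2. The rises were 81.8% and the falls 9.1% of the group, against 34.2% and 34.8% of all genes. WT libraries held Mcm5 at 14.0 and 12.3 TPM (early) and 35.3 and 39.2 TPM (late), and cKO libraries at 13.8 and 11.6 TPM (early) and 39.4 and 43.5 TPM (late). This helicase subunit was higher in every late library than in any early one, and its change was 1.42 log2 (SE 0.087, adjusted p = 1.92e-05), or 2.68-fold in scaled TPM + 1. WT libraries held Mcm6 at 44.1 and 29.6 TPM (early) and 88.7 and 87.5 TPM (late), and cKO libraries at 33.5 and 23.8 TPM (early) and 76.6 and 81.3 TPM (late). The early libraries of Mcm6, another helicase subunit, were spread more widely than its late ones, and the fractions did not overlap (1.24 log2, SE 0.14, adjusted p = 8.33e-05).

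The other helicase subunits also rose, by different amounts. WT libraries held Mcm2 at 23.8 and 19.3 TPM (early) and 44.8 and 46.7 TPM (late), and cKO libraries at 23.1 and 13.9 TPM (early) and 47.9 and 44.3 TPM (late). The Mcm2 libraries did not overlap between fractions (1.07 log2, SE 0.14, adjusted p = 0.00023). WT libraries held Mcm3 at 20.3 and 17.6 TPM (early) and 37.7 and 38.4 TPM (late), and cKO libraries at 18.7 and 15.9 TPM (early) and 37.3 and 47.3 TPM (late). Nor did those of Mcm3 (0.99 log2, SE 0.095, adjusted p = 4.51e-05). The 6 Mcm proteins form one hexamer, with 1 copy of each, and their mRNAs differed in position: Mcm4 rose by 0.70 log2 (SE 0.11) and Mcm7 by 0.35 (SE 0.073), the least of the 6. The intervals of 1 SE of Mcm7 and Mcm4 do not touch, and neither do those of Mcm4 and Mcm3, while those of Mcm3, Mcm2 and Mcm6 overlap in turn. These differences between genes were not tested.

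Cdt1, which loads the helicase with Cdc6, rose by 0.68 log2 (SE 0.15, adjusted p = 0.00356), Cdc6 by 0.68 (SE 0.14, adjusted p = 0.00278) and Pcna, the sliding clamp, by 0.53 (SE 0.082, adjusted p = 0.000516). Orc1 was at 0.14 (SE 0.19) and did not pass. Gins2, a subunit of the GINS complex that activates the helicase, went the other way. WT libraries held Gins2 at 23.2 and 24.5 TPM (early) and 17.5 and 16.6 TPM (late), and cKO libraries at 28.8 and 40.2 TPM (early) and 16.3 and 15.4 TPM (late). All late libraries lay below all early ones, and Gins2 fell by 0.87 on the log2 scale (SE 0.12, adjusted p = 0.000221), a ratio of 0.546 in scaled TPM + 1.

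Of the 3 genes of nucleotide supply 2 rose (66.7%, against 34.2% of all genes) and 1 did not pass. The ribonucleotide reductase subunits Rrm2 and Rrm1 rose by 0.82 log2 (SE 0.11) and 0.57 log2 (SE 0.16). Tyms, thymidylate synthase, was at 0.19 (SE 0.12, adjusted p = 0.188), and passed in the fit without WT late replicate 1 (0.31, adjusted p = 0.0443). The chromatin genes Uhrf1, which guides maintenance DNA methylation, and Ezh2, the methyltransferase of a Polycomb complex, rose by 0.80 (SE 0.079) and 0.36 log2 (SE 0.062).

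Of the 8 mitotic kinase, checkpoint and ubiquitination genes 6 rose and 2 fell (75.0% and 25.0%, against 34.2% and 34.8% of all genes). WT libraries held Cdc20 at 15.6 and 12.7 TPM (early) and 37.6 and 43.0 TPM (late), and cKO libraries at 16.6 and 17.8 TPM (early) and 45.5 and 53.0 TPM (late). Cdc20, the activator of the anaphase-promoting complex, was more than 2-fold higher in the late library of each lysate (1.34 log2, SE 0.092, adjusted p = 1.92e-05). WT libraries held Plk1 at 10.3 and 12.7 TPM (early) and 28.0 and 36.7 TPM (late), and cKO libraries at 15.5 and 11.9 TPM (early) and 34.5 and 30.5 TPM (late). Plk1, a kinase of mitotic entry and spindle assembly, did not overlap between fractions (1.19 log2, SE 0.13, adjusted p = 7.28e-05). Bub1b and Bub1, of the spindle checkpoint, rose by 0.83 (SE 0.12) and 0.43 log2 (SE 0.11), and the kinases Aurka and Aurkb by 0.62 (SE 0.090) and 0.39 (SE 0.12). The adjusted p of Aurkb, 0.02, became 0.0582 without WT early replicate 1, 0.0517 without cKO early replicate 1 and 0.0621 without WT late replicate 2, while its change stayed at 0.37, 0.37 and 0.36 log2.

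The 2 genes of this group that fell encode small proteins. WT libraries held Birc5 at 17.2 and 21.8 TPM (early) and 10.7 and 9.93 TPM (late), and cKO libraries at 22.6 and 24.6 TPM (early) and 7.36 and 11.8 TPM (late). Birc5 (survivin), a subunit of the chromosomal passenger complex that also holds Aurkb, fell by 1.16 on the log2 scale (SE 0.14, adjusted p = 0.000148), the largest fall of the 42, and its fractions did not overlap. WT libraries held Ube2c at 95.9 and 99.3 TPM (early) and 60.7 and 74.3 TPM (late), and cKO libraries at 127 and 118 TPM (early) and 76.0 and 104 TPM (late). Ube2c, the ubiquitin-conjugating enzyme of the anaphase-promoting complex, fell by 0.61 on the log2 scale (SE 0.10, adjusted p = 0.000748). Its deposited TPM in cKO late replicate 2 was above both early values of WT, and its fractions also overlapped after scaling. The enzyme and the activator of the same complex thus lay on opposite sides of 0, at -0.61 and 1.34 log2.

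Among 7 centromere and spindle genes 5 rose, 1 fell and 1 did not pass. The rises were 71.4% and the falls 14.3%, against 34.2% and 34.8% of all genes. WT libraries held Kif20a at 11.8 and 10.2 TPM (early) and 24.3 and 25.2 TPM (late), and cKO libraries at 10.8 and 7.35 TPM (early) and 27.6 and 27.0 TPM (late). In deposited TPM the late libraries of Kif20a, a kinesin of cytokinesis, were all more than 2-fold above the early ones. On the log2 scale after scaling the change was 1.19 (SE 0.12, adjusted p = 5.14e-05), and 0.895 in WT lysate 1. WT libraries held Tpx2 at 21.7 and 22.4 TPM (early) and 40.2 and 46.8 TPM (late), and cKO libraries at 19.8 and 19.4 TPM (early) and 39.9 and 46.5 TPM (late). Tpx2, which activates Aurka on the spindle, was separated as clearly (0.91 log2, SE 0.079, adjusted p = 3.29e-05). The motors Kif11 and Kif23 rose by 0.63 (SE 0.11) and 0.42 log2 (SE 0.093).

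Cenpa, the histone H3 variant that marks centromeres, was the centromere gene that fell. WT libraries held Cenpa at 20.1 and 25.4 TPM (early) and 12.3 and 12.2 TPM (late), and cKO libraries at 23.5 and 24.5 TPM (early) and 13.3 and 9.62 TPM (late). All late levels lay below all early ones, and Cenpa fell by 1.04 on the log2 scale (SE 0.13, adjusted p = 0.000145), a ratio of 0.486 in scaled TPM + 1. The very large kinetochore proteins had small values: Cenpf rose by 0.34 log2 (SE 0.11, adjusted p = 0.0215) and Cenpe was at 0.16 (SE 0.13, adjusted p = 0.31). The Cenpf call was lost without WT late replicate 1 (adjusted p = 0.0788), cKO late replicate 1 (0.066), WT early replicate 2 (0.0771) or cKO early replicate 2 (0.0773), with changes of 0.28, 0.29, 0.30 and 0.26 log2.

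Top2a, the topoisomerase that untangles replicated chromosomes, rose by 0.68 log2 (SE 0.13, adjusted p = 0.00195). Mki67, which coats mitotic chromosomes, was at 0.19 (SE 0.10, adjusted p = 0.136). The Mki67 value passed on TPM as deposited (0.31, adjusted p = 0.025), with each lysate as a replicate block (0.19, adjusted p = 0.0459) and without cKO early replicate 1 (0.27, adjusted p = 0.0442).

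The coding sequences of the A-type and B-type cyclins hold 398 to 430 codons, and their changes ran from -0.54 to 0.82 log2. Differences between these genes were not tested. WT libraries held Ccnb1 at 11.2 and 8.99 TPM (early) and 17.3 and 24.2 TPM (late), and cKO libraries at 12.4 and 10.6 TPM (early) and 21.5 and 23.4 TPM (late). Ccnb1 (430 codons), which partners Cdk1 in mitosis, rose without overlap (0.82 log2, SE 0.12, adjusted p = 0.000445). WT libraries held Ccnb2 at 41.5 and 39.7 TPM (early) and 36.5 and 40.3 TPM (late), and cKO libraries at 35.3 and 35.2 TPM (early) and 39.9 and 39.2 TPM (late). The fractions of Ccnb2 (398 codons), its paralog, overlapped, and the change was -0.077 log2 (SE 0.067, adjusted p = 0.335). WT libraries held Ccna2 at 56.6 and 64.3 TPM (early) and 38.2 and 46.1 TPM (late), and cKO libraries at 60.7 and 66.8 TPM (early) and 45.5 and 55.7 TPM (late). All late libraries of Ccna2 (422 codons), the cyclin of S and G2 phase, were below all early ones, and it fell by 0.54 on the log2 scale (SE 0.095, adjusted p = 0.00101). Cdk1, the kinase these cyclins bind, rose by 0.46 log2 (SE 0.10, adjusted p = 0.00362).

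Of the 5 G1 and G1/S cyclins 2 rose and 3 did not pass. The rises were 40.0% of the group, near the 34.2% of all genes. WT libraries held Ccnd1 at 102 and 110.0 TPM (early) and 147 and 161 TPM (late), and cKO libraries at 109 and 97.9 TPM (early) and 158 and 157 TPM (late). Ccnd1 (295 codons), a D-type cyclin that activates Cdk4 and Cdk6, rose without overlap (0.45 log2, SE 0.068, adjusted p = 0.00044). WT libraries held Ccnd2 at 72.5 and 61.5 TPM (early) and 82.0 and 93.9 TPM (late), and cKO libraries at 61.0 and 60.5 TPM (early) and 81.3 and 91.7 TPM (late). Its paralog Ccnd2 (289 codons) also rose (0.33 log2, SE 0.078, adjusted p = 0.00549). WT libraries held Ccnd3 at 55.9 and 47.7 TPM (early) and 51.0 and 53.3 TPM (late), and cKO libraries at 54.2 and 52.0 TPM (early) and 53.6 and 65.0 TPM (late). The third paralog, Ccnd3 (292 codons), overlapped between fractions (-0.037 log2, SE 0.080, adjusted p = 0.696). D-type cyclins are also made in cells that do not divide, and their levels here cannot be assigned to cycling cells.

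The E-type cyclins, which start DNA replication with Cdk2, were low and overlapped between fractions. WT libraries held Ccne1 at 6.75 and 7.45 TPM (early) and 7.01 and 6.09 TPM (late), and cKO libraries at 7.85 and 7.92 TPM (early) and 7.82 and 7.77 TPM (late). The change of Ccne1 was -0.16 log2 (SE 0.11, adjusted p = 0.197). WT libraries held Ccne2 at 6.47 and 7.11 TPM (early) and 6.90 and 7.90 TPM (late), and cKO libraries at 6.53 and 8.0 TPM (early) and 8.06 and 5.99 TPM (late). That of Ccne2 was -0.076 log2 (SE 0.14, adjusted p = 0.637). On TPM as deposited, which moves the median of all genes from -0.014 to 0.087 and the share of calls that are rises from 49.6% to 56.2%, the small negative values of Ccnb2, Ccne2 and Ccnd3 became 0.04, 0.03 and 0.08.

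A longer coding sequence has room for more ribosomes, so the change between fractions was compared with coding length (the longest coding sequence per symbol in GENCODE M21 on GRCm38, found for 42 of 42 genes). Across the 42 genes Spearman's rho was 0.43 and Pearson's r on log2 length 0.50, and across 14687 genes 0.63 and 0.64. Genes share libraries and are not independent replicates, so no p is given. In single lysates rho of the 42 was 0.55 (WT replicate 1), 0.38 (WT replicate 2), 0.39 (cKO replicate 1) and 0.37 (cKO replicate 2). The 4 genes with the shortest coding sequences, Cenpa (402 nt), Birc5 (420 nt), Ube2c (537 nt) and Gins2 (555 nt), were among the 5 that fell, and the fifth was Ccna2 (1266 nt). The longest ones, Cenpe (7413 nt), Cenpf (8991 nt) and Mki67 (9531 nt), had changes of 0.16, 0.34 and 0.19. Among the 35 genes under 3000 nt, a limit that leaves out the 7 longest, rho was 0.63. The 0.63 across 14687 genes covers all lengths, and no value was computed for all genes under 3000 nt.

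When all genes were put in 10 equal bins of coding length, the median change ran from -1.12 log2 in the shortest bin (median 414 nt) to 0.49 in the longest (median 4551 nt). Of the 42 genes, 22 lay above the upper quartile of their own bin, where 25.0% of all genes lie by construction, 17 between the quartiles and 3 below the lower quartile. Pcna (783 nt) stood 1.17 above its bin median, Cdc20 (1497 nt) 1.14, Mcm5 (2202 nt) 1.05 and Plk1 (1809 nt) 0.91. Ccna2 stood at -0.54, Cenpe at -0.33 and Mki67 at -0.30, the 3 below the lower quartile. Birc5, Cenpa and Gins2 lay between the quartiles for their length, at -0.040, 0.080 and 0.25 from the bin median. Ube2c, the other short gene that fell, stood 0.51 above its bin median and above the upper quartile.

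**Figure D3:**
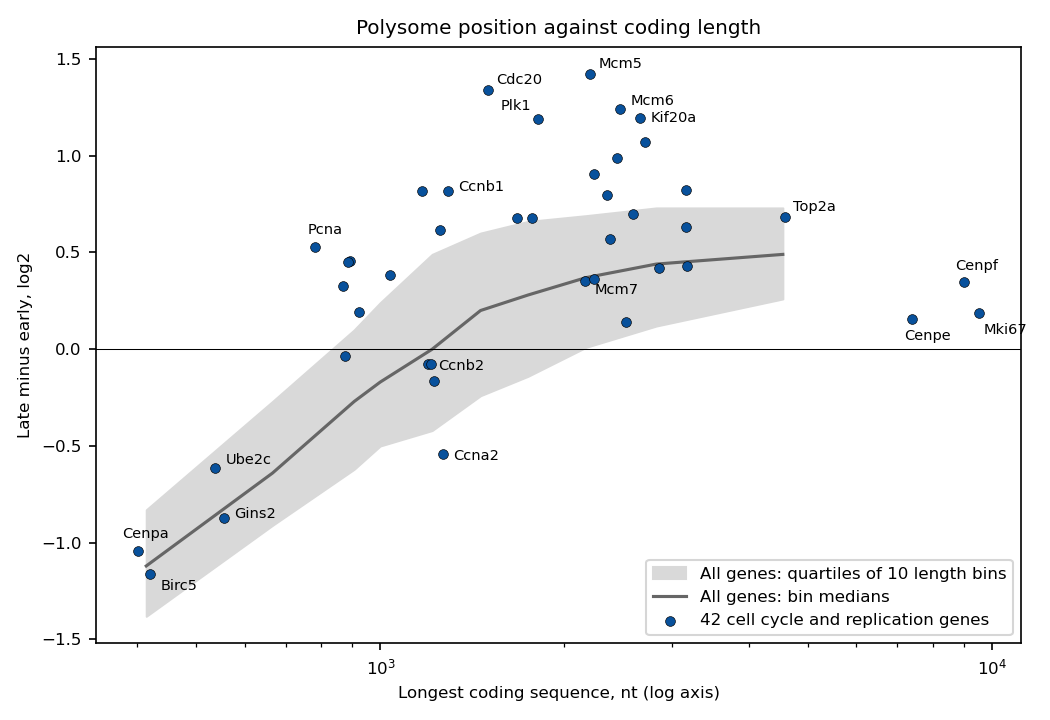
Late minus early difference (log2) against the longest coding sequence (nt, log axis); blue points are the 42 genes, the grey line joins the medians of 10 bins of all genes with a coding sequence and the band their quartiles. Cdc20, Plk1, Mcm5 and Pcna lie above the band, and Birc5 and Cenpa near the line.

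A wider list of 154 other genes of the cell cycle was looked at in the same comparison, and 153 of them were tested. Of these 68 rose and 47 fell in late polysomes, with a median of 0.22 log2. These are 44.4% and 30.7% of the list, against 34.2% and 34.8% of all genes. Of 28 spindle and cytokinesis genes 16 rose and 4 fell (median 0.50), of 39 licensing and replisome genes 20 rose and 10 fell (0.32), and of 37 kinetochore, cohesin and condensin genes 19 rose and 12 fell (0.31), the falls being 32.4% of that group. Among 19 E2F, Rb and MuvB regulators 4 rose and 8 fell (-0.11), among 17 cell cycle kinases and phosphatases 6 rose and 4 fell (0.050), and among 7 nucleotide supply genes 2 rose and 5 fell (-0.43). The largest rises among genes of at least 5 TPM were in Fen1, the flap endonuclease of Okazaki fragments (1.32 log2, SE 0.077), Pold1, the catalytic subunit of DNA polymerase delta (1.27, SE 0.16), and Kif22, a chromosome motor (1.16, SE 0.13). The largest falls were in Rpa3, the smallest subunit of the single-strand binding complex (-1.93, SE 0.19), Cks2, a small partner of Cdk1 (-1.70, SE 0.18), and Ska2, of the kinetochore (-1.44, SE 0.13). Coding sequences were 1140, 3315 and 1980 nt for Fen1, Pold1 and Kif22 and 363, 237 and 360 nt for Rpa3, Cks2 and Ska2.

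The second comparison of the design set cKO against WT, within each fraction. Mex3a encodes an RNA-binding protein. No gene of the 42 passed by limma in early polysomes, in late polysomes or on lysate means (the average of a lysate's early and late value, which gives 2 WT and 2 cKO values). Of all genes 0.0435%, 0.0124% and 0.00621% passed. The test with voom on inferred reads also called 0 of the 42 each time. At an unadjusted p under 0.05 were 3 of 42 in early polysomes (6.63% of all genes), 3 in late polysomes (9.32%) and 4 on lysate means (11.3%). The median difference of the 42, cKO minus WT, was 0.038 log2 for early polysomes, 0.046 for late polysomes and 0.045 for lysate means, against 0.006, -0.004 and 0 over all genes.

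After scaling, 10 genes were higher in both cKO libraries than in both WT libraries of early polysomes and 4 lower (19.6% and 17.5% of all genes), and in late polysomes 11 and 5 (20.1% and 20.6%). On lysate means 14 were higher and 6 lower (22.6% and 21.1%). The wider list gave 0 of 153 calls in each comparison by limma. At an unadjusted p under 0.05 were 12 of its genes in early polysomes, 13 in late polysomes and 14 on lysate means. Of all genes 6.63%, 9.32% and 11.3% were. Some marker sums also separated the genotypes. With 2 libraries per group such separation is common, as the shares of all genes above show (19.6% and 17.5% early, 20.1% and 20.6% late). Globose basal and progenitor markers summed to 869 to 903 TPM in WT and 906 to 929 TPM in cKO for early polysomes, and to 908 to 942 and 989 to 1054 TPM for late polysomes, without overlap in either fraction. Hes6 was at 239 and 257 TPM in WT and 283 and 287 TPM in cKO for early polysomes. Insm1 was at 207 and 223 TPM in WT and 231 and 336 TPM in cKO for late polysomes. Without Hes6 the early sums overlapped, as did the late sums without Insm1. Of the 11 markers tested 9 were higher and 2 lower in cKO for early polysomes. For late polysomes 7 were higher and 4 lower, and 0 passed in either fraction by limma. Erythroid marker sums were 64.3 to 77.2 TPM in WT and 89.7 to 114 TPM in cKO over both fractions, again without overlap. T cell and macrophage sums of late libraries were 173 to 195 TPM in WT and 209 to 232 TPM in cKO, and B and plasma cell sums of early libraries 12.4 to 17.8 and 18.1 to 24.9 TPM. The macrophage markers Csf1r, Cd68, C1qa and C1qb held most of the T cell and macrophage sums. By limma 0 of the tested erythroid, T cell and macrophage, or B and plasma cell markers passed in either fraction. Neutrophil-lineage sums overlapped between genotypes in both fractions, and horizontal basal cell sums did too. The part of these cells in the values below was not tested.

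**Figure D4:**
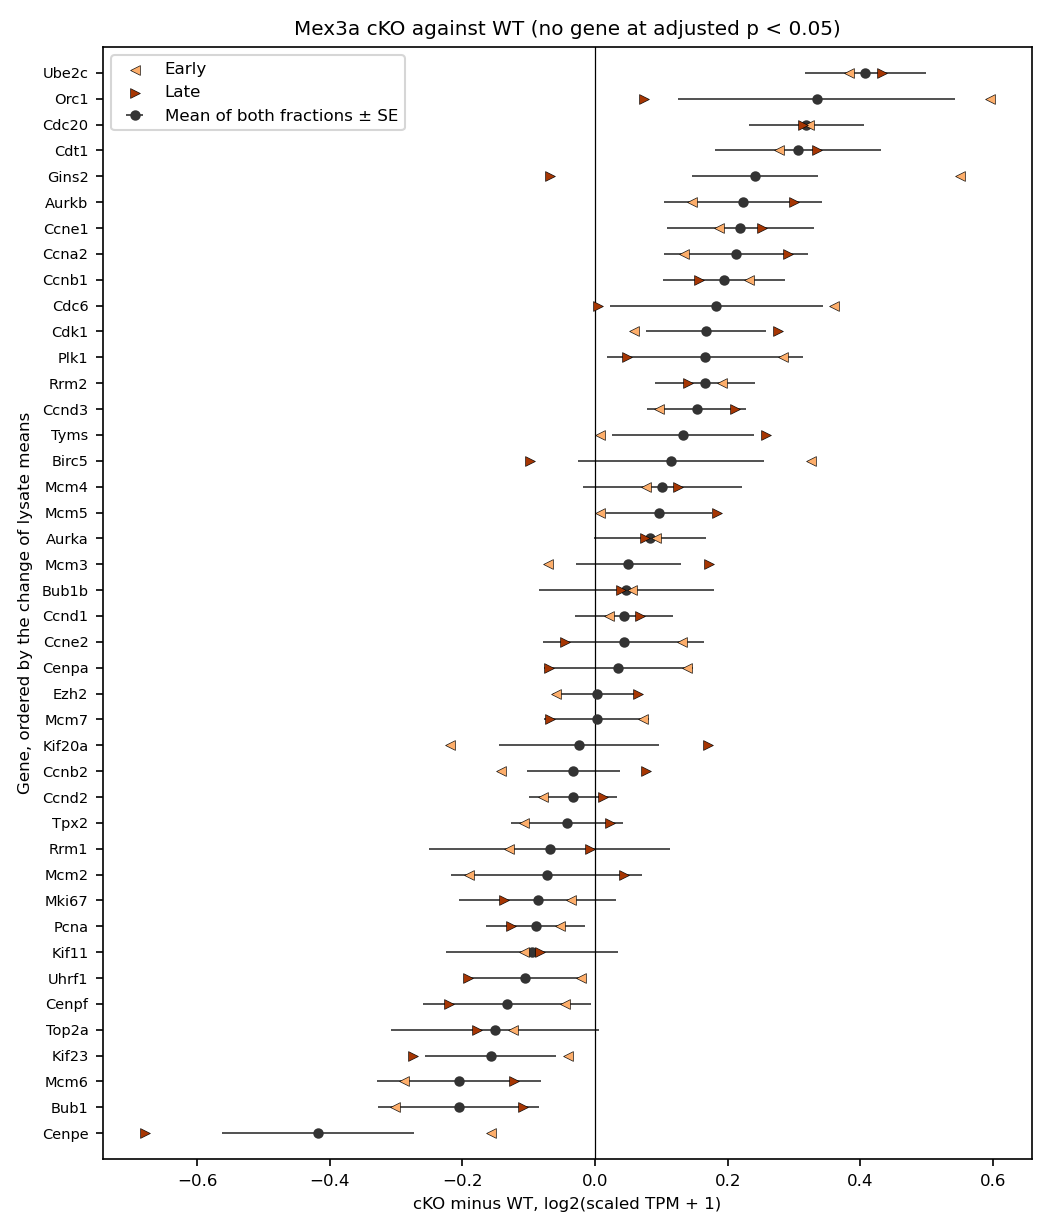
Difference between cKO and WT on the log2(scaled TPM + 1) scale of the 42 genes: lysate means with standard error (black circles), early polysomes (light triangles) and late polysomes (dark triangles). No gene passed an adjusted p of 0.05; on lysate means Ube2c lies highest at 0.41 and Cenpe lowest at -0.42.

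The genes with the smallest unadjusted p on lysate means are given as values. Ube2c was higher in both cKO libraries of each fraction. Its scaled mean was 99.8 ± 3.31 TPM in WT and 130.3 ± 4.56 TPM in cKO for early polysomes (SD, n = 2 each). For late polysomes it was 63.9 ± 8.39 TPM in WT and 87.1 ± 16.8 TPM in cKO (SD, n = 2 each). The difference of Ube2c on lysate means was 0.41 log2 (SE 0.091, unadjusted p = 0.00451, adjusted p = 0.353 by limma). Cdc20 was also higher in both cKO libraries of each fraction, by 0.32 log2 on lysate means (SE 0.086, unadjusted p = 0.0106, adjusted p = 0.371 by limma). Neither passed.

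Gins2 differed by 0.55 log2 in early polysomes (SE 0.16, adjusted p = 0.673 by limma) and -0.067 in late polysomes (SE 0.16), and by 0.24 on lysate means (adjusted p = 0.432). The interaction of genotype and fraction was -0.62 for Gins2 (unadjusted p = 0.0278, adjusted p = 1.0 by limma). It was the only one of the 42 at an unadjusted p under 0.05 in the interaction, where 2.80% of all genes were. After adjustment 0 of the 42 passed the interaction by limma or voom, and 0.00621% of all genes did by limma. WT libraries held Cdt1 at 10.5 and 9.50 TPM (early) and 15.2 and 20.2 TPM (late), and cKO libraries at 12.3 and 11.4 TPM (early) and 17.1 and 27.9 TPM (late). The late libraries of Cdt1 overlapped between genotypes, and the difference on lysate means was 0.31 log2 (SE 0.13, adjusted p = 0.445 by limma).

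WT libraries held Cenpe at 11.3 and 8.71 TPM (early) and 15.5 and 13.9 TPM (late), and cKO libraries at 8.99 and 7.96 TPM (early) and 9.79 and 7.45 TPM (late). In late polysomes both cKO libraries of Cenpe lay below both WT libraries (-0.68 log2, SE 0.18, unadjusted p = 0.00577, adjusted p = 0.371 by limma), while the early libraries overlapped (-0.16, SE 0.18). On lysate means Cenpe was at -0.42 (SE 0.14, adjusted p = 0.403). WT libraries held Bub1 at 6.37 and 7.44 TPM (early) and 9.49 and 9.77 TPM (late), and cKO libraries at 5.58 and 4.83 TPM (early) and 8.81 and 8.46 TPM (late). The difference of Bub1 on lysate means was -0.21 log2 (SE 0.12, adjusted p = 0.56 by limma), with both cKO lysates below both WT lysates. WT libraries held Kif23 at 11.0 and 11.6 TPM (early) and 17.5 and 18.9 TPM (late), and cKO libraries at 10.5 and 10.6 TPM (early) and 15.5 and 13.5 TPM (late). That of Kif23 was -0.16 log2 (SE 0.098, adjusted p = 0.575 by limma), likewise without overlap of lysates. Mcm6 stood at -0.21 (SE 0.12, adjusted p = 0.564 by limma), with lysates that overlapped between genotypes.

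The differences between genotypes were also set beside coding length. Of the 7 genes with a coding sequence of 3000 nt or more 6 were lower in cKO on lysate means, with a median of -0.13 log2. Of the 35 shorter ones 10 were lower, with a median of 0.096. Of all 16097 genes tested, at any length, 8054 were lower. The share among all genes of 3000 nt or more was not computed, so whether the 42 differ from it is not known. Across the 42 genes the difference on lysate means correlated with coding length at rho = -0.56 and r = -0.58, and across 14687 genes at -0.20 and -0.15. In early polysomes rho was -0.53 over the 42 and -0.29 over all genes, and in late polysomes -0.42 and -0.057. The values share 4 lysates, and with 2 lysates per genotype a property of single lysates and the genotype cannot be told apart.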

How the data were processed

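Polysomal RNA of the main olfactory epithelium was sequenced in 8 libraries (stranded total RNA kit, per the labels' protocols). The authors deposited TPM for each gene symbol and library, with columns that sum to 1000000. The submitters' processing notes name FastQC, cutadapt, STAR, DESeq2 and the build mm10 without versions or roles; the counter and annotation are not given in the sources used here.

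Each library's TPM were divided by a median-of-ratios factor (0.930 to 1.06 over the 8), and limma was applied after taking log2 with a pseudocount of 1 (limma 3.58.1, R 4.3.3, mean-variance trend, 4 groups together) for 16097 genes with a mean of at least 1 TPM. P-values are two-sided, adjusted by Benjamini-Hochberg over all genes tested, at a threshold of 0.05. Fold changes on this scale understate those of low genes. TPM keeps no depth, but the values of a gene across libraries are whole multiples of a step, which gave whole reads for 19783 genes above 0 in at least 2 libraries (tolerance 0.003 reads); these reads served depth and a voom test.

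The 42 genes and all lists were chosen with earlier results of these data known. Values by library are given for genes that passed between genotypes (none), the 8 largest rises and up to 8 falls (5 passed) between fractions, the 4 smallest p on lysate means each way, and the paralogous cyclins. In the wider list, up to 3 genes each way of at least 5 TPM are named. Groups and replicate numbers came from the titles. Early and late libraries of a lysate share its name; their deviations from group means correlated at 0.0864 in WT and 0.0503 in cKO. Alternatives were another pseudocount, filters, scalings, voom, replicate blocks, only the compared fraction, and leaving out each library. Tested on simulated data of 16056 genes, the test on log2 TPM recovered 200 of 200 genes changed 3-fold between genotypes in early polysomes. It recovered 199 in late polysomes and 200 on lysate means, with 16, 22 and 29 false calls. The simulation changed 0 genes for the interaction, yet the same test called 7 there. Genotype differences of the 42 genes ran from -0.68 log2 (Cenpe, late polysomes) to 0.60 log2 (Orc1, early polysomes), all smaller than 3-fold. Recovery of differences of that size was not tested. Intervals of error cover the spread between libraries only. Figures were drawn with matplotlib 3.10.9.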

Additional observations from a re-analysis of the deposited data

How the results depend on the processing

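Between fractions, the count of 34 genes called on average over genotypes was 33 to 35 under all alternatives, 33 to 34 when each library was left out. Within WT it was 21 to 30 and within cKO 22 to 29 without single libraries. Lysate as a replicate block gave 35 genes on average, 30 in WT and 30 in cKO. The median change of the 42 moved with the scaling. On TPM as deposited it was 0.573 on average, 0.577 in WT and 0.615 in cKO, and under quantile normalization 0.569 in cKO; medians of all genes moved with it (0.087 and 0.049 on average). Leaving out libraries gave medians of 0.427 to 0.488 on average, 0.458 to 0.547 in WT and 0.43 to 0.50 in cKO. Where 1 library of a group is left, it is assumed to vary like the other groups.

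Between genotypes, 0 of the 42 passed under the alternatives run, apart from Ube2c on lysate means (0.41 log2, adjusted p = 0.0403 by limma) with the replicate number as a replicate block, which gave 1 call. Numbers are not stated to mark a shared batch; the deviations of same-numbered WT and cKO libraries had a correlation of 0.331 for early and 0.142 for late polysomes. Medians were -0.039 to 0.118 in early and -0.001 to 0.086 in late polysomes without single libraries, and 0.001 to 0.089 on lysate means without single lysates, for which whole lysates were left out. The interaction median was -0.063 to 0.088. On TPM as deposited the lysate-mean median was 0.003. Without single libraries, small values changed sign for Ccne2 (range -0.18 to 0.03), Ccnd3 (-0.09 to 0.02; 0.01 without WT early replicate 1, 0.02 without cKO late replicate 1) and Cenpe in early polysomes (-0.32 to 0.01), and on TPM as deposited for Ccnb2, Ccne2 and Ccnd3 (0.04, 0.03 and 0.08). The cause was not tested. Depth limits Orc1 (11 reads in its lowest library) and Cdc6 (36 reads).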

Other observations

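The inhibitors of cyclin-dependent kinases, which hold cells out of the cycle, are given here as a whole list, with members named after their values were seen. Of 7 listed inhibitors, 6 were tested. From early to late polysomes 1 rose and 4 fell (16.7% and 66.7%, against 34.2% and 34.8% of all genes). Their changes were not set beside coding length, with which the change of all genes varied. Cdkn1c, found in cells leaving the cycle in many tissues, rose from early to late polysomes by 1.13 log2 (SE 0.088, adjusted p = 2.44e-05 by limma). Cdkn2d fell by 1.03 on the log2 scale (adjusted p = 0.000769), Cdkn2c by 0.75 (0.000126), Cdkn2b by 0.57 (0.0257) and Cdkn1a by 0.37 (0.000863). Cdkn1b was at 0.088 (SE 0.068, adjusted p = 0.274). Between genotypes 0 of the 6 passed on lysate means by limma, and 1, Cdkn1a (-0.20 log2), had an unadjusted p under 0.05 (0.0257, adjusted p = 0.403). Of all genes 11.3% had an unadjusted p under 0.05 there.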
